A study of Mus musculus with 10 samples.

Results

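A total of 34 genes of the cell cycle and of DNA replication were followed in mouse colon organoids, out of 56748 genes in the table. They were taken by name from the protein-coding rows, 1 row per gene, as a list that runs from entry into S phase to the end of mitosis. All 34 passed the filter used for testing, a mean of at least 0.5 FPKM (fragments per kilobase of gene length, scaled by library), and none was under 0.697 FPKM in any library. The organoids, epithelial cultures that grow from crypt cells, were given WY-14643 at 100 µM or vehicle for 2 days, from day 3 after passage. WY-14643 is a synthetic ligand that activates PPARα, a receptor of fatty acids. The 5 WY-14643 libraries carry replicate numbers 6 to 10 and the 5 vehicle libraries 1 to 5. PPARα was not removed or blocked in any group. Neither animal nor culture of origin is labelled, so each p-value reflects how these libraries scatter, which could be technical in part.

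Proliferating cells copy their DNA once per cycle and then divide it. Cdc6 and Cdt1 load the Mcm2-7 helicase onto replication origins in G1, cyclin D and cyclin E with their kinases free E2F1 from the retinoblastoma protein, and E2F1 turns on genes that S phase needs. The DREAM complex holds cell cycle genes silent in resting cells, and B-MYB and FoxM1 then drive the later wave of genes for G2 and mitosis, among them cyclin B, Plk1 and Cdc20. In the colon, division is confined to the lower crypt, and cells leave the cycle as they become absorptive or secretory. Of the 34 genes, 16 were grouped as S-phase genes and 17 as mitotic genes, with cyclin D1 (Ccnd1) in neither.

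Between 16136440 and 22209003 gene-assigned reads stood behind the WY-14643 libraries, against 15618244 to 29271304 behind the vehicle libraries, and single members rested on 38 to 44902 reads per library. The cultures were epithelial: the keratin gene Krt8 lay between 938 and 2694 FPKM in WY-14643 libraries and between 1024 and 2345 FPKM in vehicle libraries. All 10 fibroblast and smooth muscle markers stayed below 0.5 FPKM, with 2 (Dcn and Lum) at 0 in every library. They summed to 0.0687 to 0.313 FPKM in WY-14643 and 0.109 to 0.238 FPKM in vehicle. Endothelial markers summed to 0.086 to 0.768 FPKM in WY-14643 and 0.152 to 0.948 FPKM in vehicle libraries (2 of 8, Emcn and Cldn5, at 0). Immune markers summed to 3.34 to 6.8 FPKM in WY-14643 and 3.22 to 5.93 FPKM in vehicle libraries (Cd3e, Lyz2 and Nkg7 at 0 in every library), most of it from Cd68.

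Promoter windows were searched for the letters by which each wave is known. RefSeq windows of 300 bases, 250 before and 50 after a gene's start on build GRCm38.p6, were at hand for 27 of the 34 genes (28 windows, with 2 for Mcm7). E2F-type letters (TTTCCCGC, TTTGGCGC, TTTCGCGC or TTTGCCGC, on either strand) stood in 6 of 15 S-phase windows (40.0%) and in 1 of 13 mitotic windows (7.69%), that of Cdk1, against 2.26% of all 32851 windows of the same length. CHR-type letters (TTTGAA or TTCGAA, on either strand), to which DREAM and FoxM1 complexes are known to bind, stood in 2 of 15 S-phase windows (13.3%) and 11 of 13 mitotic windows (84.6%), against 19.2% of all windows. CCAAT letters, the NF-Y motif, stood in 9 of 15 (60%) and 12 of 13 (92.3%), against 37.4% of all, and CHR-type with CCAAT in 2 of 15 (13.3%) and 11 of 13 (84.6%), against 7.52%. Matches of a motif were allowed to overlap, as the E2F-type letters do in Mcm5 and Mcm6. These are letter matches, not measured binding.

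The following windows show an S-phase pair and 3 mitotic genes, since the expression values below turn on whether these waves move together. They are written 5′ to 3′ in the direction of the gene, with E2F-type, CHR-type and CCAAT letters in capitals. They lie on GRCm38.p6 as Mcm5 at chr8:75109259-75109558 (plus strand), Mcm6 at chr1:128359656-128359955 (minus strand), Cdc20 at chr4:118437294-118437593 (minus strand), Ccnb2 at chr9:70421505-70421804 (minus strand) and Top2a at chr11:99024140-99024439 (minus strand).
Mcm5: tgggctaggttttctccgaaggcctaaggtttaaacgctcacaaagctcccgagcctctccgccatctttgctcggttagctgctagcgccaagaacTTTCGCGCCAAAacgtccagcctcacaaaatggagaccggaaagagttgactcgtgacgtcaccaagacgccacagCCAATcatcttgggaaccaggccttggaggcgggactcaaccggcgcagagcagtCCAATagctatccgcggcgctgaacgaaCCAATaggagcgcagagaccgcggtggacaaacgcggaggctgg
Mcm6: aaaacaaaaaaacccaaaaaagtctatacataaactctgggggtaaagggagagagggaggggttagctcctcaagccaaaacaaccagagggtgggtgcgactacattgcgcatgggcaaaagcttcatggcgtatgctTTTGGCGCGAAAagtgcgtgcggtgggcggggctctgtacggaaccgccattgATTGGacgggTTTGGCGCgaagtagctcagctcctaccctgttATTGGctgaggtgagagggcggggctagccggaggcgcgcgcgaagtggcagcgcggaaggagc
Cdc20: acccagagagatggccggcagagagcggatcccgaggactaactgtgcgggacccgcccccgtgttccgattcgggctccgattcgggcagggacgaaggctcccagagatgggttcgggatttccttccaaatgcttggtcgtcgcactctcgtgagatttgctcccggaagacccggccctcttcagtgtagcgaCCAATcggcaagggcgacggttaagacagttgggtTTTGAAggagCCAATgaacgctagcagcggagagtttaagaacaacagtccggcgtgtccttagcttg
Ccnb2: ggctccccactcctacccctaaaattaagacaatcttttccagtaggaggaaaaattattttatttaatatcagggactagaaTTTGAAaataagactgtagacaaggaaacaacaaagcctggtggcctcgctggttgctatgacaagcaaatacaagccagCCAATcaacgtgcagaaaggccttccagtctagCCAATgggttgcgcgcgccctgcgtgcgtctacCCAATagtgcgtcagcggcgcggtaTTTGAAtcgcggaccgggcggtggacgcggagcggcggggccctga
Top2a: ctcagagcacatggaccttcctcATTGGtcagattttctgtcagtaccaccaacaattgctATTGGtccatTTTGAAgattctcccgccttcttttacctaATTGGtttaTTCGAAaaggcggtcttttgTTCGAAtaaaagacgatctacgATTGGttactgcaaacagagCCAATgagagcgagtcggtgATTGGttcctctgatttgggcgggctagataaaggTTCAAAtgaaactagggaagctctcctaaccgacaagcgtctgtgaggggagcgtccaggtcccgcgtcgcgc

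Counted from the gene start, Mcm5 holds overlapping E2F-type letters at -153 to -142, and Mcm6 at -110 to -99 and once more at -47 to -40. The shorter capitals in both are CCAAT on either strand. In Cdc20 the run TTTGAA lies at -18 to -13, between CCAAT at -53 to -49 and at -8 to -4. In Ccnb2 it lies at 5 to 10, after 3 CCAAT boxes, and at -167 to -162. Top2a holds 4 CHR-type runs and 6 CCAAT boxes.

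**Figure D1:**
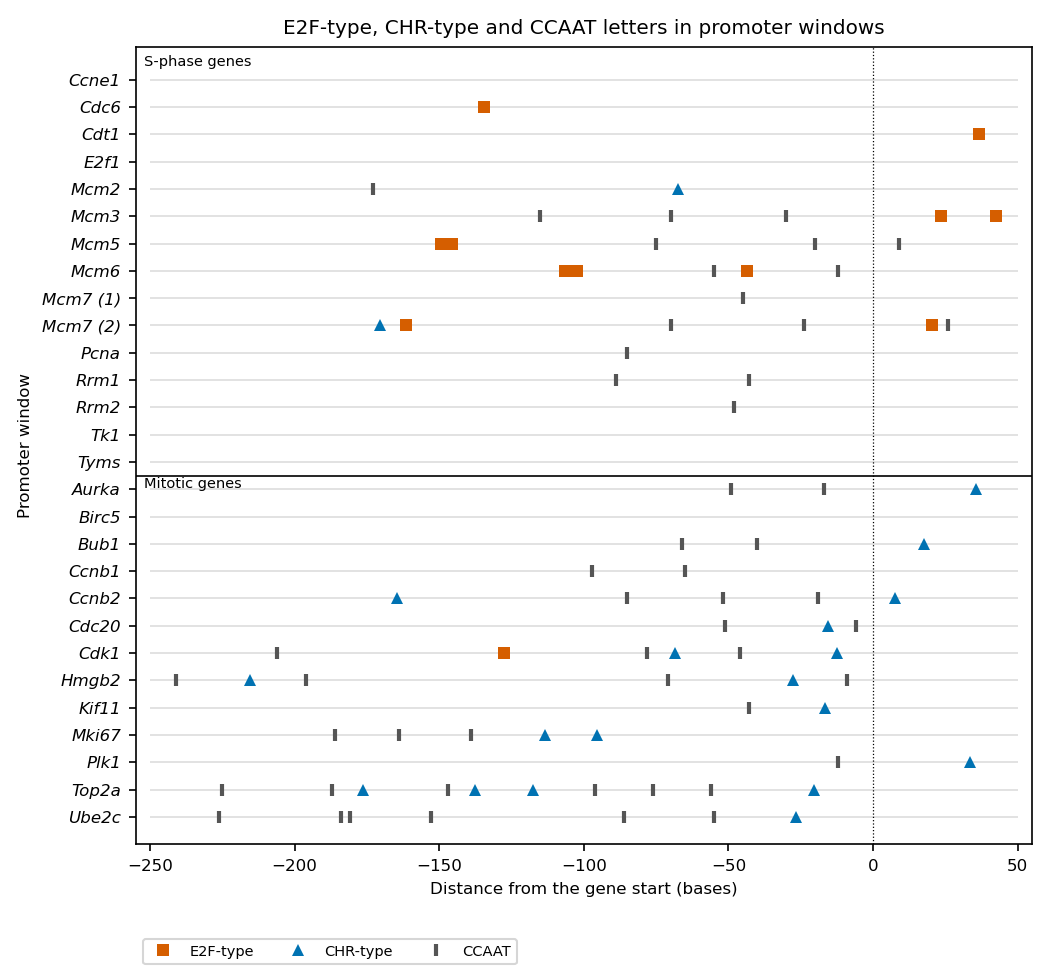
Each row is a promoter window of 300 bases, with distance from the gene start in bases on the x axis and S-phase genes above mitotic genes (Mcm7 has 2 windows). Squares are E2F-type, triangles CHR-type and bars CCAAT letters. Triangles stand in 11 of 13 mitotic rows and squares in 6 of 15 S-phase rows.

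No cell cycle gene passed the test between WY-14643 and vehicle. With limma on log2(FPKM + 1) over 13607 genes, 0 of the 34 genes passed (every adjusted p = 1.0, unadjusted p between 0.712 and 0.985), beside 0.0% of all genes tested. Of all 13607 genes, 205 had an unadjusted limma p under 0.05 and of the 34 none did, which at so small a share does not set the 34 apart. Voom on reads recovered from the table also called 0 genes. Log2 fold changes of the 34 lay between -0.08 (Mcm2) and 0.20 (Ccnb2), with a median of 0.06 beside -0.006 over all genes tested. WY-14643 and vehicle libraries overlapped in all 34 genes. Only 0.353% of all genes tested did not overlap, so this does not set the 34 apart either. The mean of log2(FPKM + 1) was higher in WY-14643 for 29 of 34 genes, whereas mean FPKM was higher for 12 and lower for 22, so the direction turned with the scale. The count on the log2 scale was 0 when vehicle replicate 4 was left out and 34 when WY-14643 replicate 9 was, so its direction rests on single libraries (leaving out others gave 5 to 34). With library weights, which put most weight on WY-14643 replicate 8 and vehicle replicate 3 (3.90 and 4.35, others 0.552 to 1.02), 6 of 34 were higher on the log2 scale.

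The wide spread between libraries followed the replicate numbers. Across all genes tested, vehicle replicates 1 to 5 deviated from their group mean as WY-14643 replicates 6 to 10 did, in numerical order (correlations across genes 0.684, 0.641, 0.423, 0.732 and 0.782, at most 0.0602 for other combinations). Genes are not independent replicates, and no label states a pairing. The pairs were chosen from these same values and the numerical order. A smaller spread within them follows in part from that choice, and p-values with pairs depend on it. A fit with these 5 matched pairs as a block narrowed the intervals: the residual SD of the 34 genes had a median of 0.83 without pairs and 0.19 with them, on the log2 scale (0.24 and 0.11 over all genes tested). It still called 0 of the 34 (adjusted p between 0.671 and 0.98), beside 0.316% of all genes tested. At an unadjusted p under 0.05 it held 1438 of all 13607 genes and none of the 34. With any 1 pair left out, the blocked fit likewise called none of the 34 at an adjusted p under 0.05.

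**Figure D2:**
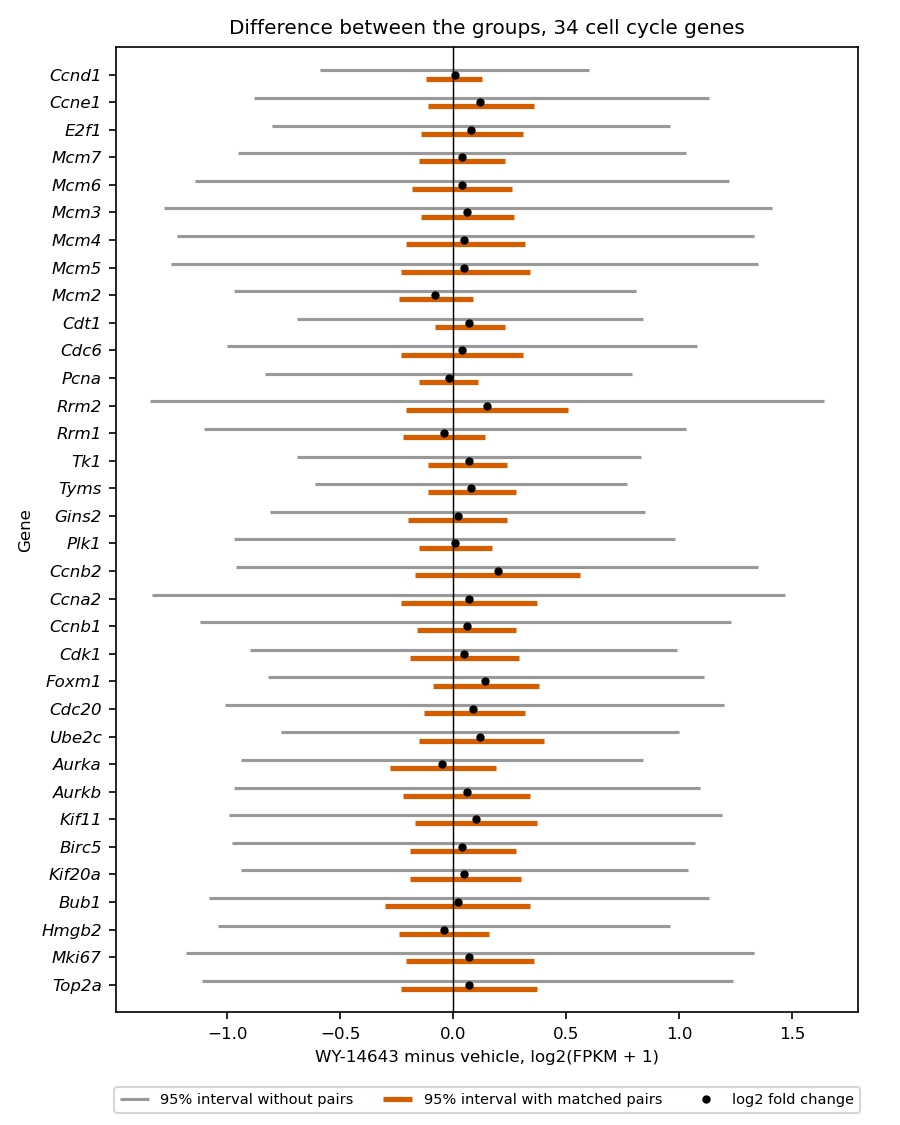
The x axis gives the difference of WY-14643 minus vehicle in log2(FPKM + 1) for each of the 34 genes (y axis), with 5 libraries per group. Points are fold changes, grey lines 95% intervals without pairs and orange lines 95% intervals with matched pairs. All intervals cover 0, and the matched ones of Foxm1 and Ccnb2 run to 0.38 and 0.56.

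Cyclin D1, the G1 cyclin that receives growth signals, was the most abundant member per length and varied least between libraries. Ccnd1 (ENSMUSG00000070348) was at 234, 192, 225, 185 and 412 FPKM in WY-14643 replicates 6 to 10, against 261, 192, 202, 181 and 408 FPKM in vehicle replicates 1 to 5. Replicates 10 and 5 stood far above the rest, and the group means were 250 ± 93.0 FPKM in WY-14643 and 249 ± 94.1 FPKM in vehicle libraries (SD, n = 5 each). Its log2 fold change was 0.01 (95% interval -0.12 to 0.13 with matched pairs). Cyclin E1, which drives entry into S phase, was at 9.25, 5.13, 5.74, 1.96 and 8.11 FPKM in WY-14643 libraries and 8.71, 4.15, 4.81, 1.26 and 10.3 FPKM in vehicle libraries. E2f1 was at 4.67, 4.55, 4.47, 1.44 and 6.11 FPKM in WY-14643 and 5.35, 3.94, 4.60, 0.764 and 6.27 FPKM in vehicle libraries. Both were lowest in replicates 9 and 4, and E2f1 was highest in replicates 10 and 5.

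Origin licensing genes were also lowest in replicates 9 and 4. Mcm5, a subunit of the replicative helicase, was at 31.9, 17.4, 24.8, 5.18 and 22.8 FPKM in WY-14643 replicates 6 to 10, against 31.0, 13.3, 25.9, 3.80 and 31.2 FPKM in vehicle replicates 1 to 5. Replicates 9 and 4 were the lowest of their groups, and the highest library exceeded the lowest by 8.41-fold. Mcm7 was at 45.1, 31.0, 38.7, 12.0 and 38.4 FPKM in WY-14643 and 44.1, 26.8, 38.2, 10 and 47.5 FPKM in vehicle libraries. Mcm2, the member with the lowest fold change, was at 17.9, 9.78, 13.6, 4.51 and 14.1 FPKM in WY-14643 and 18.6, 9.45, 13.3, 4.60 and 18.7 FPKM in vehicle libraries (log2 fold change -0.08, matched 95% interval -0.24 to 0.09). Replicates 10 and 5 differed most for Mcm2, with a log2 difference of -0.39, while the other 4 pairs lay between -0.05 and 0.04. Cdt1, the licensing factor destroyed in S phase, was at 12.0, 8.94, 11.4, 3.65 and 10.9 FPKM in WY-14643 and 11.1, 7.14, 10.6, 3.6 and 12.0 FPKM in vehicle libraries. Of the 8 licensing genes 7 had a higher mean log2 level and 2 a higher mean FPKM in WY-14643, none of them past the test, with a median log2 fold change of 0.05.

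At the fork, Pcna, the sliding clamp of DNA polymerases, was at 77.5, 54.9, 50.9, 25.4 and 64.8 FPKM in WY-14643 libraries, against 79.0, 54.7, 54.7, 22.3 and 72.5 FPKM in vehicle libraries. Its matched interval, -0.15 to 0.11, was among the narrowest of the 34. Rrm2, the ribonucleotide reductase subunit made in S phase, varied most of all 34 genes: 36.7, 20.1, 24.0, 4.95 and 26.4 FPKM in WY-14643 and 40.4, 14.0, 24.7, 2.68 and 31.5 FPKM in vehicle libraries, a 15.1-fold range. Tyms, which makes thymidylate, was at 7.75, 4.44, 5.45, 2.74 and 5.71 FPKM in WY-14643 and 8.17, 3.6, 5.78, 1.91 and 5.99 FPKM in vehicle libraries. The partner subunit Rrm1, thymidine kinase Tk1 and the helicase cofactor gene Gins2 ranged 6.14-fold, 3.72-fold and 7.59-fold over the 10 libraries. Their log2 fold changes were -0.04, 0.07 and 0.02.

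Ccnb2 and Foxm1, of G2 and mitosis, were among the 3 largest fold changes with Rrm2, all within the spread. Ccnb2, a mitotic cyclin, was at 37.2, 29.0, 44.5, 11.8 and 37.0 FPKM in WY-14643 replicates 6 to 10, against 45.1, 22.6, 43.7, 6.17 and 35.4 FPKM in vehicle replicates 1 to 5. WY-14643 stood above vehicle in 4 of 5 matched pairs, most in replicates 9 and 4 (log2 difference 0.83), and the fold change of 0.20 had a matched 95% interval of -0.17 to 0.56 (limma, adjusted p = 0.715 with pairs). Foxm1, the factor of mitotic genes, was at 10.1, 7.51, 10.6, 2.86 and 9.31 FPKM in WY-14643 and 10.1, 5.73, 10.7, 1.71 and 10.1 FPKM in vehicle libraries. Its log2 fold change of 0.14 had the smallest matched p of the 34 (0.189, adjusted p = 0.671 in limma). Plk1, a kinase of mitotic entry and exit, was at 38.2, 31.1, 41.5, 10.5 and 37.4 FPKM in WY-14643 and 35.9, 26.1, 43.2, 10.7 and 43.4 FPKM in vehicle libraries, a fold change of 0.01. Ccnb1, the main partner of Cdk1, was at 29.3, 18.5, 26.0, 5.50 and 19.7 FPKM in WY-14643 and 31.4, 13.7, 27.3, 4.53 and 22.7 FPKM in vehicle libraries. Ccna2 and Cdk1 ranged 11.5-fold and 5.42-fold over the 10 libraries, with fold changes of 0.07 and 0.05.

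Cdc20, which activates the ubiquitin ligase of anaphase, was at 64.0, 35.4, 48.2, 14.6 and 45.8 FPKM in WY-14643 libraries, against 61.4, 30.0, 51.0, 10.4 and 52.6 FPKM in vehicle libraries. Ube2c, the conjugating enzyme of the same ligase, was at 31.2, 20.3, 30.9, 11.6 and 23.6 FPKM in WY-14643 and 39.2, 15, 30.8, 8.17 and 22.5 FPKM in vehicle libraries. The spindle motor gene Kif11 was at 17.7, 11.3, 17, 4.05 and 12.9 FPKM in WY-14643 and 19.9, 7.80, 17.6, 2.88 and 14.5 FPKM in vehicle libraries. For all 3, replicates 9 and 4 were the lowest of their groups and replicates 7 and 2 the second lowest. The other mitotic genes, the Aurora kinase genes Aurka and Aurkb, the survivin gene Birc5, the checkpoint kinase gene Bub1 and the cytokinesis motor gene Kif20a, had fold changes between -0.05 and 0.06. Bub1 ranged 10-fold and Aurka 3.97-fold over the 10 libraries.

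The markers most used to count dividing cells gave the same picture. Mki67, which encodes the antigen Ki-67 (ENSMUSG00000031004, chr7:135291513-135318090 on mm39, minus strand), was at 76.1, 33.7, 43.2, 13.0 and 36.8 FPKM in WY-14643 replicates 6 to 10, against 83.0, 25.5, 47.3, 9.12 and 43.3 FPKM in vehicle replicates 1 to 5. Top2a, a topoisomerase that untangles chromosomes, was at 60.3, 31.2, 39.9, 12.1 and 32.8 FPKM in WY-14643 and 65.8, 22.7, 45.8, 8.68 and 38.6 FPKM in vehicle libraries. For both genes WY-14643 was above its vehicle partner in replicates 7 and 9 and below it in replicates 6, 8 and 10. Group means of Mki67 were 40.6 ± 22.9 FPKM in WY-14643 and 41.7 ± 27.7 FPKM in vehicle libraries (SD, n = 5 each), a log2 fold change of 0.07 with a 95% interval of -1.18 to 1.33 without pairs and -0.21 to 0.36 with them. Hmgb2, a chromatin protein of cycling cells, was at 92.6, 56.6, 86.3, 25.0 and 51.1 FPKM in WY-14643 and 99.7, 49.0, 97.9, 21.9 and 63.6 FPKM in vehicle libraries. In bulk RNA, fewer dividing cells and less RNA per dividing cell cannot be told apart.

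**Figure D3:**
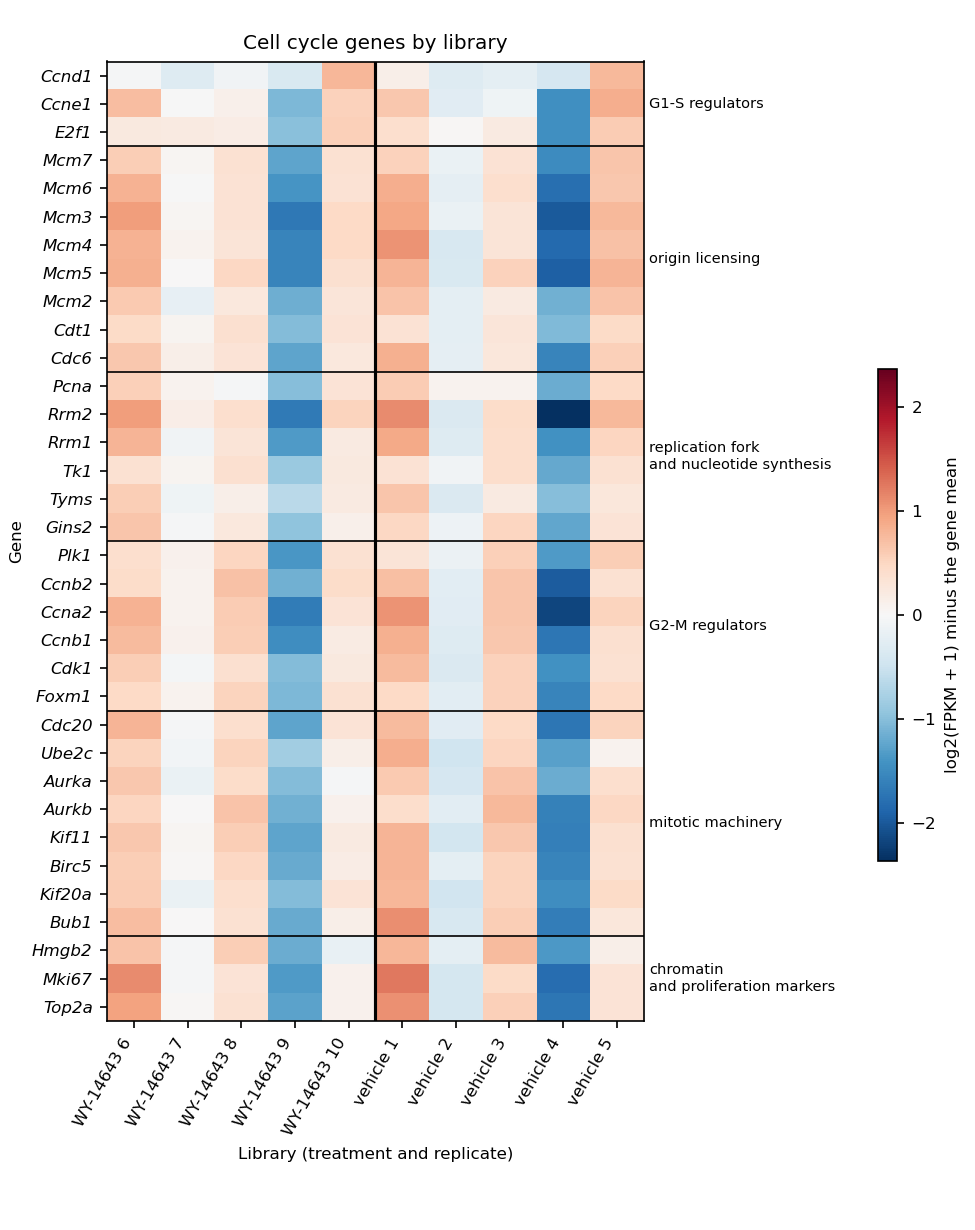
Columns are the 10 libraries, WY-14643 left and vehicle right, and rows the 34 genes by role. Colour gives log2(FPKM + 1) minus the gene's mean over the libraries. WY-14643 replicate 9 and vehicle replicate 4 are the lowest of their group in all 34 genes.

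The lowest library of each group was shared by all 34 genes, and the highest was not. WY-14643 replicate 9 was the lowest WY-14643 library in 34 of 34 genes, and vehicle replicate 4 the lowest vehicle library in 34 of 34. WY-14643 replicate 6 was highest of its group in 27 genes and vehicle replicate 1 in 21. Among the exceptions, Aurkb, Tk1 and Foxm1 peaked in replicates 8 and 3, and Ccnd1 and E2f1 in replicates 10 and 5. The highest library exceeded the lowest by 2.27-fold (Ccnd1) to 15.1-fold (Rrm2), with a median of 6.44-fold, which was 2.22-fold without replicates 9 and 4. Over genes tested with no library at 0 the median was 1.84-fold, and 3.29% of all genes tested had a larger residual SD than the median member.

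Within the matched pairs, the difference turned with the pair. In pair 1 (replicates 6 and 1) 11 of 34 genes were higher in WY-14643, with a median log2 difference of -0.10, and in pair 3 (8 and 3) 9 of 34, with -0.06. In pair 5 (10 and 5) 3 of 34 were higher, with a median of -0.20. In pair 2 (7 and 2) all 34 were higher, with a median of 0.26, and in pair 4 (9 and 4) 32 of 34, with 0.37. Over all genes tested these medians lay between -0.01 and 0.0. No gene of the 34 was higher or lower in 5 of 5 pairs, against 5.63% higher and 6.09% lower of all genes tested. The pairs in which WY-14643 stood higher are those in which the vehicle library was lowest, a comparison that uses the vehicle value on both sides.

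WY-14643 libraries lay closer together than vehicle libraries. In log2(FPKM + 1) the SD within the group was smaller in WY-14643 for 34 of 34 genes, with a median of 0.73 against 0.93 in vehicle. Over all genes tested it was smaller in WY-14643 for 61.2%, with medians of 0.22 in WY-14643 and 0.25 in vehicle. Without pair 4 the medians of the 34 were 0.31 in WY-14643 and 0.48 in vehicle, and 34 of 34 remained smaller; leaving out any other pair gave 32 to 34. The 34 genes moved together across the same 5 pairs, so they are not 34 separate observations, and the difference in spread was not tested.

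S-phase and mitotic genes had like fold changes. The median log2 fold change was 0.05 over the 16 S-phase genes (-0.08 to 0.15; 13 with a higher mean log2 level and 6 with a higher mean FPKM) and 0.06 over the 17 mitotic genes (-0.05 to 0.20; 15 with a higher mean log2 level and 5 with a higher mean FPKM), with none past the test. The mean level of S-phase genes was 4.31, 3.67, 3.92, 2.42 and 3.99 in WY-14643 replicates 6 to 10, against 4.34, 3.43, 3.94, 2.13 and 4.23 in vehicle replicates 1 to 5, as log2(FPKM + 1). For mitotic genes it was 4.90, 4.25, 4.74, 3.04 and 4.44 in WY-14643 and 5.03, 3.92, 4.84, 2.65 and 4.62 in vehicle libraries. The order of libraries differed between the lists in 1 place, since WY-14643 replicate 8 and vehicle replicate 3 stood above replicates 10 and 5 for mitotic genes and below them for S-phase genes.

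The balance between the phases differed less within pairs than over all libraries. S-phase minus mitotic level was -0.59, -0.58, -0.82, -0.62 and -0.45 in WY-14643 replicates 6 to 10, against -0.69, -0.48, -0.89, -0.52 and -0.39 in vehicle replicates 1 to 5. Group means were -0.61 ± 0.13 in WY-14643 and -0.59 ± 0.20 in vehicle libraries (SD, n = 5 each). Within pairs the libraries differed by -0.10 to 0.09, while pairs ranged from -0.89 in vehicle replicate 3 to -0.39 in vehicle replicate 5. Replicates 8 and 3 were tilted most to mitotic genes and replicates 10 and 5 most to S-phase genes.

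**Figure D4:**
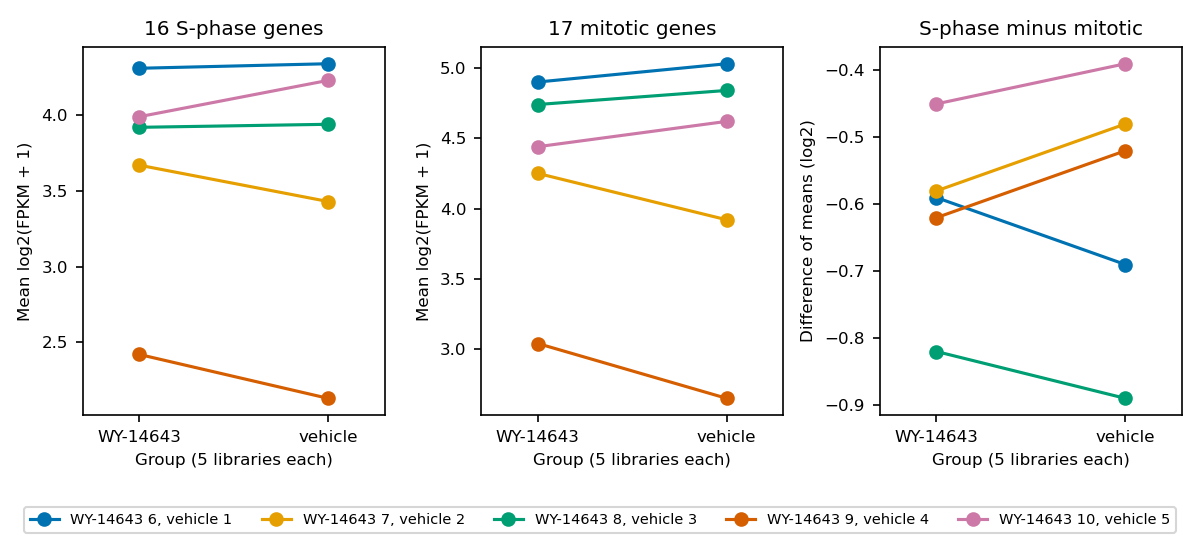
Panels give, for each library, the mean log2(FPKM + 1) of 16 S-phase genes, that of 17 mitotic genes and their difference, with WY-14643 left and vehicle right and lines joining matched libraries. Levels run from 2.13 to 4.34 and from 2.65 to 5.03, lines slope both ways, and the difference runs from -0.89 to -0.39.

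Other genes of the pathway were read from lists that hold none of the 34. Of 44 further replication genes, such as origin recognition, polymerase and clamp loader subunits, 0 were called higher and 0 lower in either fit, with 21 higher and 23 lower mean log2 levels and a median of -0.00. Of 50 further mitotic genes 0 were called (32 higher and 18 lower mean log2 levels, median 0.02), with Cdca3, a trigger of mitotic entry, at a log2 fold change of 0.19 and Cenpa, the centromeric histone, at 0.14. Among the replication genes, Orc2 of the origin recognition complex, the topoisomerase gene Top1 and Gins1 had fold changes of -0.15, -0.06 and -0.18. The residual SD of these lists without pairs had medians of 0.59 and 0.71, below the 0.83 of the members. Not all members of these lists varied so widely: Bub3, Top1, Orc3, Orc4 and Orc5 had residual SDs of 0.11 to 0.17. Pttg1, the securin gene, with 0.22, was at 5.54, 8.61, 5.64, 5.93 and 7.51 FPKM in WY-14643 and 5.61, 7.64, 6.78, 6.82 and 8.51 FPKM in vehicle libraries. Replicates 9 and 4 were not its lowest.

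Most upstream regulators varied less between libraries than the 34 genes, with exceptions. The residual SD had a median of 0.30 over 17 other G1 cyclins, kinases and E2F factors. It was also 0.30 over a list of 20 genes headed by CDK inhibitors and pocket proteins, beside 0.24 over all genes tested. That list also holds E2f4, E2f5, Lin9, Lin37, Lin52, Lin54, Wee1, Pkmyt1, Btg1 and Btg2. Cdkn2a (0.82), Ccne2 (0.79), E2f8 (0.78), Cdkn2c (0.70) and Mybl2 (0.65) were the most variable of both lists. They lay within the range of the 34, which was 0.47 to 1.22. Ccnd2 (0.55), E2f7 (0.52), Cdkn1c (0.5) and Rbl1 (0.5) also lay within it, near its lower end. None of these genes was called in either fit. Myc, a driver of growth, was at 78.4, 80.4, 95.6, 88.0 and 75.2 FPKM in WY-14643 and 82.2, 77.4, 89.4, 95.3 and 82.0 FPKM in vehicle libraries, and did not drop in replicates 9 and 4. Cdkn1a, the p21 inhibitor, was at 59.0, 87.0, 77.0, 81.9 and 101 FPKM in WY-14643 and 64.4, 89.6, 70.9, 92.8 and 98.8 FPKM in vehicle libraries. It was lowest in replicates 6 and 1, where the mean level of the 34 genes was highest. Its highest values were in replicates 10 and 5, not in replicates 9 and 4, where that level was lowest. Log2 fold changes were 0.02 for Cdkn1b, the p27 inhibitor, 0.11 for the phosphatase gene Cdc25a, -0.18 for Cdkn2d and 0.10 for E2f5.

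A few of these regulators kept 1 direction in 5 of 5 pairs, though none passed the test. Ccnd2, a second D cyclin, was at 64.2, 29.9, 35.7, 36.0 and 23.2 FPKM in WY-14643, against 79.4, 30.8, 37.3, 37.2 and 28.6 FPKM in vehicle libraries (log2 fold change -0.15, adjusted p = 0.422 in limma with pairs). Cdk4, E2f3 and Mycn were also lower in 5 of 5 pairs, by log2 fold changes of -0.09, -0.09 and -0.17. Thus 4 of the 17 G1 genes were lower throughout, beside 6.09% of all genes tested. These 17 genes share the same 5 pairs, so they are not 17 separate observations. The list was chosen with earlier results of these data known, and its count was not tested. Btg1, an antiproliferative gene, was at 40.4, 64.3, 50.9, 70.4 and 68.1 FPKM in WY-14643 and 39.1, 60.2, 46.5, 59.1 and 53.8 FPKM in vehicle libraries. It was higher in 5 of 5 pairs (log2 fold change 0.17, adjusted p = 0.310 in limma with pairs). It was the 1 such gene of the 20 in its list, a share near the 5.63% of all genes tested, so this count does not set the list apart.

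**Figure D5:**
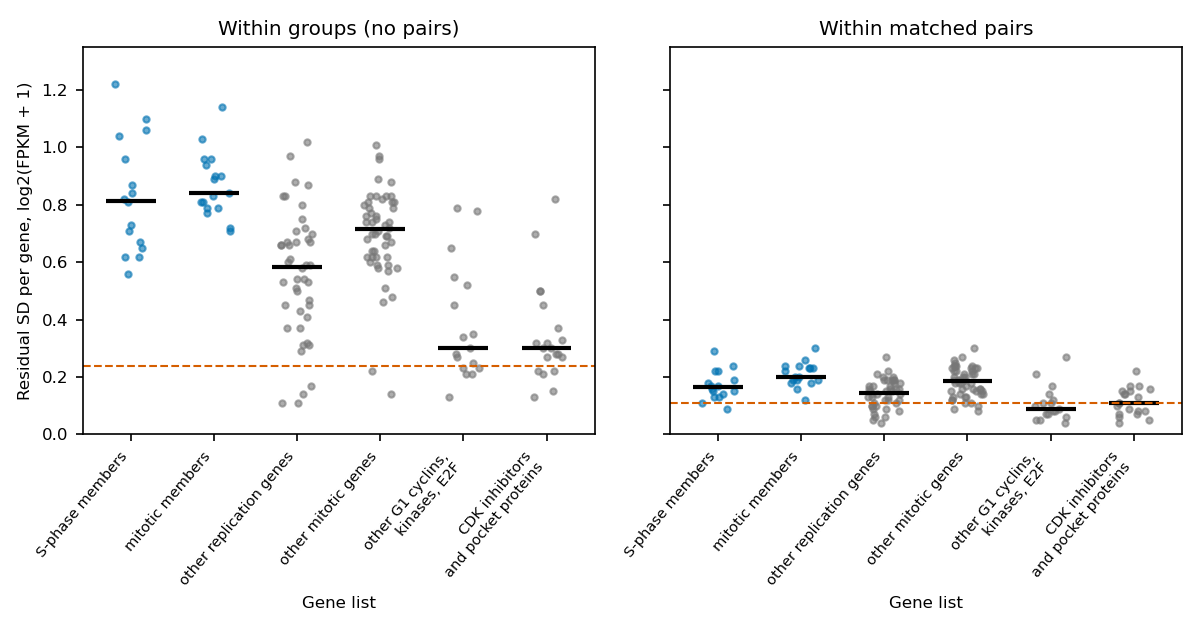
Each point is a gene and the y axis its residual SD in log2(FPKM + 1), without pairs on the left and with matched pairs on the right, by gene list on the x axis. Black bars are list medians and dashed lines the medians over all genes tested, 0.24 and 0.11. S-phase and mitotic members lie at medians of 0.81 and 0.84 without pairs and of 0.16 and 0.20 with them.

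Markers of mature and stem cells also varied between the pairs. The 10 absorptive markers summed to 598, 1080, 672, 1970 and 166 FPKM in WY-14643 replicates 6 to 10, against 313, 1149, 473, 866 and 142 FPKM in vehicle replicates 1 to 5, with 1 of 10, Car4, at 0. Most of this was Car1, a carbonic anhydrase, at 324, 827, 439, 1626 and 43.1 FPKM in WY-14643 and 90, 887, 246, 559 and 21.0 FPKM in vehicle libraries. It was higher in WY-14643 in 4 of 5 pairs, with a log2 fold change of 1.02 (matched 95% interval 0.38 to 1.67, adjusted p = 0.240 in limma with pairs), and 6 of the 7 absorptive markers tested had a higher mean log2 level, with a median fold change of 0.39 and none called. The sum was high in the pairs with the lowest cell cycle levels, 9 and 4 and 7 and 2, but lowest in replicates 10 and 5, whose cell cycle levels were not the highest. The 10 crypt stem cell markers summed to 123 to 235 FPKM in WY-14643 and 134 to 232 FPKM in vehicle libraries. Of the 7 tested, 2 had a higher and 5 a lower mean log2 level in WY-14643, with a median fold change of -0.01. The 10 goblet cell markers summed to 19.0 to 79.2 FPKM in WY-14643 and 36.0 to 75.8 FPKM in vehicle libraries. Of the 7 goblet markers tested, 1 was higher and 6 lower in WY-14643, with a median of -0.27, and none of either list was called. The part of these markers in the cell cycle values was not tested.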

How the data were processed

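RNA of 10 mouse colon organoid libraries was analysed from 1 gene table. The values are FPKM made by the authors, deposited with gene length and mm39 coordinates. Per the submitters' processing notes HISAT2 2.0.5 and featureCounts 1.5.0-p3 were used. Library scaling, strand setting, annotation release and how multiply mapped reads were handled are not stated there, so reads shared with pseudogenes or overlapping genes are uncertain. FPKM times gene length, divided by the library's smallest such value, gave whole numbers for 100% of values (tolerance 0.01), and these reads served for depth and voom.

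Genes with a mean of at least 0.5 FPKM (13607) were fitted with limma 3.58.1 in R 4.3.3 on log2(FPKM + 1), with trended, robust priors, no covariate and Benjamini-Hochberg adjustment over all of them at a threshold of 0.05. The fits were run on simulated reads with the matched pairs built in, so that run cannot show whether the pairing holds in these data. No result here rests on it. Fold changes on this scale understate low genes. A block of matched pairs was an alternative. Members and lists were chosen with earlier results of these data known. Values of every library are given for the most abundant member and the 2 of smallest p in each role, and for Mki67, Top2a, Pcna, Ccnd1, Ccnb1 and Mcm5. Other lists give the 3 of smallest p, chosen genes, or the 2 most abundant markers; the rest were chosen after their values were seen. Promoters are RefSeq's on GRCm38.p6. Their coordinates were not combined with those of the table.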

Additional observations from a re-analysis of the deposited data

Results flagged for a closer look

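Of 74 groups of 5 values examined, those of the 34 genes and of the phase means in each treatment group, 1 held a library far from the rest: Ccnd1 in WY-14643 libraries, where replicate 10 (412 FPKM) stood away from the other 4 (185 to 234 FPKM) by 0.784 of the group's whole range. The critical value is 0.71, and chance passes it in about 1 of 20 groups. Vehicle replicate 5, its matched library, was at 408 FPKM.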

How the results depend on the processing

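Of 22 alternatives, none called any of the 34 genes. Over the whole table, 0 genes were called in the fit without pairs, 21 with library weights and 43 with matched pairs; with pairs and 1 pair left out the counts were 33, 3, 2, 13 and 33 for pairs 1 to 5, and with 1 library left out 0 to 2. The count of members with a higher mean log2 level in WY-14643, chosen after seeing the data as were its alternatives, was 29, against 12 on mean FPKM, 6 with library weights, 15 with pairs and pair 2 left out, 13 with pairs and pair 4 left out, and 0 to 34 with 1 library left out. The cause of these moves was not tested. With 1 library left out, the median fold change ran from -0.34 to 0.35 over S-phase genes and from -0.33 to 0.35 over mitotic genes. Of 748 fold changes of single members, 171 changed sign and 110 moved by at least the gene's residual SD within matched pairs, among them 33 when WY-14643 replicate 9 was left out and 34 when vehicle replicate 4 was. A pseudocount of 0.1, no filter, a filter of 1 FPKM, a common total and voom left the count on the log2 scale between 28 and 29. The labels share no replicate number between groups, so the pairing rests on the data and the numerical order.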
